A study of Mus musculus with 28 samples.

Results

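The genes of glutamate uptake and of the glutamine cycle were examined in 28 single mouse brain cells. The 9 genes were chosen by name for their function, with earlier results of these data known. They are the glutamate and neutral amino acid transporter genes Slc1a1, Slc1a2, Slc1a3 and Slc1a4, the enzyme genes Glul and Glud1, and the glutamine transporter genes Slc38a1, Slc38a2 and Slc38a3. All 9 were present in the exonic count table, which lists 23453 genes, and in the intronic count table, which lists 20422. All 9 also passed the filter used below, at least 10 exonic counts in at least 4 of the 28 cells, which 12668 genes passed. The labels describe 12 neurons and 8 astrocytes from primary cultures of C57/BL6 cortex, taken up with a pipette, and 8 interneurons of C57/BL6/N mice, taken by patch clamp pipette from acute slices of the prefrontal cortex. No transgene, treatment or deletion is named for any of them. The study's methods describe its mouse neuron and astrocyte cultures as embryonic, from embryos of both sexes; the labels' protocol for the cultured cells instead describes a perfused male mouse of 3 months, which the methods give for tissue sections. No animal or culture is named for any single cell, and the cultured and slice cells were made into libraries with different kits and read on different sequencers.

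The columns of the count tables carry codes that no sample label contains, so that 0 of the 28 columns could be tied to a labelled cell. The cells are therefore described by 3 blocks of codes: a block of 8 cells (BRP564 and BRP566 to BRP572, the 8-cell BRP block), a block of 12 cells (the other BRP codes, the 12-cell BRP block) and a block of 8 cells whose codes begin with F (the F block). Astrocyte, neuron and interneuron identities are presumed for these blocks, in that order, from block size and marker levels, and no label states them. Because markers entered that split, every difference between blocks is a description and carries no test, and the cells of a block are not replicates of a condition. The spread is given as the lowest, median and highest cell.

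Glutamate released at synapses is cleared by sodium-coupled transporters of the Slc1 family, most of it into astrocytes. There, glutamine synthetase turns it into glutamine, which leaves through transporters of the Slc38 family, is taken up by neurons and is turned back into glutamate there. Glutamate dehydrogenase, a mitochondrial enzyme, feeds glutamate into the citric acid cycle. In brain, Slc1a3 (GLAST), Slc1a2, Glul and Slc38a3 are known mainly from astrocytes, Slc1a1 (EAAC1) mainly from neurons, and Slc1a2 transcripts have also been described in neurons.

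The marker lists gave the blocks the following profile. In the 8-cell BRP block, 10 of 12 astrocyte markers had a median of at least 10 exonic counts per 1000000 exonic counts of the cell (CPM), their summed level ran from 5038 to 9245 CPM and Gjb6 was at 0. Of the 8 neuron markers, 2 had medians of at least 10 CPM there, Map2 at 357.6 and Stmn2 at 193.8 CPM, both with counts in 8 of 8 cells, while Snap25, Rbfox3 and Nefl had medians of 0, and the list summed to 311.3 to 800.8 CPM. In the 12-cell BRP block, all 8 neuron markers and all 6 glutamatergic markers had medians of at least 10 CPM. The summed astrocyte markers of that block had a median of 110.8 CPM, but reached 2008 CPM in cell BRP528 and 8376 CPM in cell BRP529, against at most 268.2 CPM in the other 10 cells. The neuron markers summed to 9562 and 4900 CPM in these 2 cells, so that each carried both sets of markers. BRP528 also held 2845 CPM of GABAergic markers and 0.598 CPM of glutamatergic markers. In the F block, 4 of 8 neuron markers and 3 of 6 GABAergic markers had medians of at least 10 CPM. The GABA synthesis gene Gad1 stood at 2754 CPM, the GABA transporter gene Slc32a1 at 530.5 CPM and Gad2 at 10.2 CPM, whereas Lhx6 and Dlx1 had medians of 0.524 and 0.998 CPM, Dlx2 of 0 and Rbfox3 of 0.125 CPM. The glutamatergic markers did not exceed 5.96 CPM in sum in any F cell. Astrocyte markers in the F block summed to between 0 and 1548 CPM, and cell F16 held 2093 CPM of Csf1r, with the other 4 microglial markers at 0. Exonic totals ran from 12969692 to 26770944 counts in the 20 BRP cells and from 838343 to 14831505 in the F cells, which had 2338 to 7218 genes with an exonic count against 9869 to 12815 in the BRP cells. At this depth, 3 counts correspond to 0.112 to 0.231 CPM in the BRP cells and to 0.202 to 3.58 CPM in the F cells, which is the limit that a count of 0 allows, for counting error only.

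Of the 9 genes, 7 had a promoter in the RefSeq table for GRCm38.p6, 250 bases before to 50 bases after the annotated start. The 4 shown are those of the genes that lay furthest apart between the BRP blocks in each direction and are in that table: Slc1a3 (chr15:8710758-8711057, minus strand) and Glud1 (chr14:34310477-34310776, plus strand), higher in the 8-cell BRP block, and Slc1a1 (chr19:28834885-28835184, plus strand) and Slc1a2 (chr2:102706188-102706487, plus strand), lower there. Capitals mark the GC box GGGCGG on either strand.
Slc1a3: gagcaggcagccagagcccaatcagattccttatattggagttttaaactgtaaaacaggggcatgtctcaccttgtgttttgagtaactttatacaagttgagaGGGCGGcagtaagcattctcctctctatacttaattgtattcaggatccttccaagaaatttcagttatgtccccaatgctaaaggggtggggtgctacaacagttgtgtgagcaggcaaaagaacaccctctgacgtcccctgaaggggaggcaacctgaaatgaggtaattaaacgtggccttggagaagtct
Glud1: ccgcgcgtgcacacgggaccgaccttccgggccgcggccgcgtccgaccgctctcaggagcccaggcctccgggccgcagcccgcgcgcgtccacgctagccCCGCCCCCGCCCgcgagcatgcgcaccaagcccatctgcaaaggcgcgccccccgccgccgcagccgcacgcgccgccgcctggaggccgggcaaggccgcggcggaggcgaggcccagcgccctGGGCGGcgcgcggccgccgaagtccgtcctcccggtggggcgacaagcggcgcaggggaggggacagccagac
Slc1a1: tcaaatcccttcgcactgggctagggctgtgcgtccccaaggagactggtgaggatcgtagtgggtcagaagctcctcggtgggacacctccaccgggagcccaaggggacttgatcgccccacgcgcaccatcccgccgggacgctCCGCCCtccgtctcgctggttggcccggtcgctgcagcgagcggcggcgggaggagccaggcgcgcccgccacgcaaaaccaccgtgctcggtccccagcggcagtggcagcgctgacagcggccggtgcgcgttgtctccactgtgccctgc
Slc1a2: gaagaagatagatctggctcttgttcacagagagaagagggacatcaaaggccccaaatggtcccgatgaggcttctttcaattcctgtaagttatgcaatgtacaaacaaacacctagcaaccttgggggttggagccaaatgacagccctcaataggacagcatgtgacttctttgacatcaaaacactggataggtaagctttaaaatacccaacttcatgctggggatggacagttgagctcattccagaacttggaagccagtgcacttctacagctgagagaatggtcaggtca

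The GC box was found 3 times in the Glud1 promoter, once in those of Slc1a3 and Slc1a1 and not in that of Slc1a2; 35.7% of the 32851 promoters of the table hold at least 1. The promoters of Glud1 and Slc1a1 were rich in G and C, at 81.0% and 70.3% of bases against a median of 52.7%, while those of Slc1a2 and Slc1a3 lay below it, at 45.7% and 45.3%. The CCAAT motif occurred 3 times in the Slc1a3 promoter counting both strands and in none of the other 3; it was present in 37.4% of all promoters. Genes on the same side of the comparison thus had promoters of opposite base composition. A match of letters is a description of the window and shows no bound factor. The promoter listed for Slc1a2 begins within the gene span of GENCODE (chr2:102658659-102790784, plus strand), so it is not the first annotated start of the gene.

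Slc1a3 and Slc1a2 code for the main glutamate transporters of astrocytes. The exonic level of Slc1a3 (chr15:8634124-8710764, minus strand, GRCm38) in the 8-cell BRP block was lowest in BRP569 at 211.6 CPM, had a median of 521.5 CPM and was highest in BRP564 at 803.6 CPM. In the 12-cell BRP block it ran from 0 to 282.5 CPM with a median of 9.85 CPM. The top cells of that block were BRP529 with 282.5 CPM and BRP528 with 128.9 CPM, the same 2 that carried astrocyte markers. Without them the median was 6.52 CPM and the highest value 32.5 CPM. The F cells held 0 to 0.920 CPM, 11 counts in all over the block. The difference of medians on the log2(CPM + 1) scale, used for every difference below, was 5.58 between the 8-cell and the 12-cell BRP block, and 6.26 without the 2 cells; the ranges overlapped only through BRP529.

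Slc1a2 showed another order. The 8-cell BRP block had a lowest value of 43.2 CPM, a median of 191.7 CPM and a highest value of 469.7 CPM. The 12-cell BRP block ran from 164.3 CPM in BRP543 over a median of 803.6 CPM to 2459 CPM in BRP538. The median was thus higher in the 12-cell BRP block by 2.07 on the log2 scale, with overlapping ranges, and it was still 803.6 CPM without BRP528 and BRP529. The astrocyte markers summed to 146.8 CPM in BRP538 and to 111.8 CPM in BRP540, the cells with the highest Slc1a2 of the block, at 2459 and 2093 CPM. The F block held Slc1a2 in an uneven way: F7 had 4350 CPM, the highest value of the 28 cells, F1 had 637.1 CPM, and the other 6 cells lay between 0 and 6.14 CPM. F7 alone gave 79.8% of the Slc1a2 counts of its block.

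Slc1a1 codes for the glutamate transporter known from neurons. Its level in the 12-cell BRP block ran from 91.7 to 304.8 CPM around a median of 213.0 CPM (chr19:28835049-28913960, plus strand). In the 8-cell BRP block the median was 0.776 CPM; BRP566 and BRP567 held 66.3 and 33.2 CPM and the other 6 cells at most 2.42 CPM. Every cell of the 8-cell BRP block lay below every cell of the 12-cell BRP block, with a difference of medians of -6.95, which is at percentile 0.687 of all genes tested. The 3 lowest cells of the 12-cell BRP block were BRP528 at 91.7 CPM, BRP529 at 110.5 CPM and BRP540 at 111.2 CPM. The F block again split: F24 had 513.6 CPM, F1 154.7 CPM and F6 140.0 CPM, and the other 5 cells at most 0.683 CPM.

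Slc1a4 codes for a transporter of neutral amino acids such as serine and alanine (ASCT1). Its level was 11.9 to 90.0 CPM with a median of 46.1 CPM in the 8-cell BRP block, and 4.46 to 282.2 CPM with a median of 65.2 CPM in the 12-cell BRP block. The difference of -0.50 was within the spread of the cells of either block. Among the F cells, F2 had 474.4 CPM and F1 256.8 CPM, and the other 6 cells at most 0.456 CPM.

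**Figure D1:**
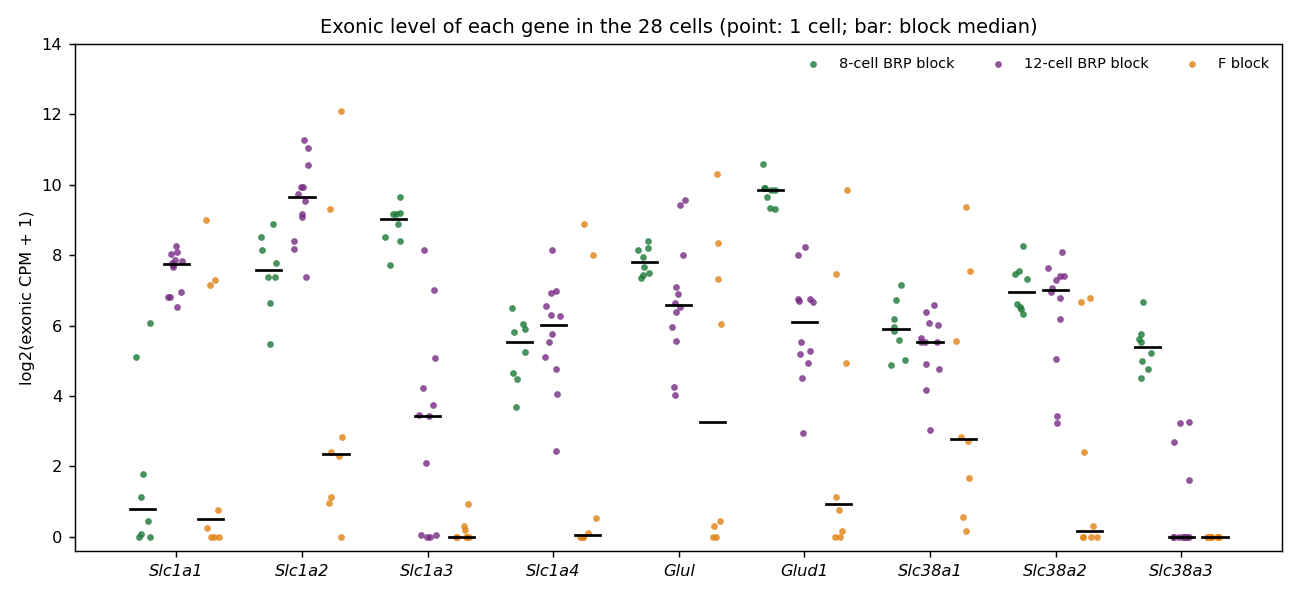
Each point is 1 of the 28 cells, placed by log2(exonic CPM + 1) on the vertical axis, for the 9 genes along the horizontal axis, in the 8-cell BRP block, the 12-cell BRP block and the F block; black bars are block medians. Slc1a1 and Slc1a3 stand at opposite ends in the BRP blocks, and most F cells lie near 0 with a few cells above 100 CPM.

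The enzyme genes were both higher in the 8-cell BRP block. Glul, glutamine synthetase (chr1:153899944-153909723, plus strand), ran there from 162.1 to 337.1 CPM around a median of 225.1 CPM. The 12-cell BRP block had a median of 95.3 CPM, from 15.4 CPM in BRP542 to 757.1 CPM in BRP529. The highest Glul values among the BRP cells were those of BRP529 and BRP528, at 757.1 and 693.1 CPM, above every cell of the 8-cell BRP block. Without these 2 cells the median was 87.0 CPM and the highest value 258.1 CPM, in BRP534. The difference of medians was 1.22, and 1.36 without them. It fell to 0.24 with means over cells and to 0.26 with summed counts, and to 0.94 with DESeq2 size factors. Among the F cells Glul was 1275 CPM in F7, 321.9 CPM in F2, 158.6 CPM in F6 and 65.2 CPM in F1, and at most 0.369 CPM in the other 4 cells, so the block median of 32.8 CPM stands for no cell.

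Glud1, glutamate dehydrogenase (chr14:34310727-34345265, plus strand), held 631.2 CPM in BRP572, the lowest cell of the 8-cell BRP block, 918.3 CPM at the median and 1535 CPM in BRP564, the highest. The 12-cell BRP block ran from 6.77 to 300.8 CPM around a median of 73.0 CPM. Its 2 highest cells were once more BRP528 and BRP529, at 300.8 and 257.4 CPM, and without them the median was 41.7 CPM and the highest value 106.3 CPM. All 8 cells lay above all 12, with a difference of medians of 3.74. For Glud1 in the F block, F2 held 918.4 CPM, F1 176.7 CPM and F24 29.8 CPM, with at most 1.19 CPM in the other 5. A processed pseudogene of Glud1, Glud-ps, is annotated in GENCODE and has no row in the exonic table, so how its reads were assigned is not known here.

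Slc38a3 codes for the glutamine transporter of astrocytes (SNAT3). Its level in the 8-cell BRP block was 21.8 CPM in BRP568, 41.1 CPM at the median and 100.2 CPM in BRP567. In the 12-cell BRP block 4 of 12 cells had a count: BRP529 with 8.68 CPM, BRP528 with 8.47 CPM, BRP540 with 5.49 CPM and BRP534 with 2.04 CPM. The other 8 cells and all 8 F cells were at 0. These 4 cells were also the 4 highest of their block in Slc1a3, at 17.7 CPM or more. All 8 cells of the 8-cell BRP block lay above all 12, with a difference of medians of 5.39 that depends on the pseudocount, since the median of the second block is 0.

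Slc38a1 and Slc38a2, which code for transporters of neuronal glutamine uptake (SNAT1 and SNAT2), differed little between the BRP blocks. Slc38a1 ran from 28.6 to 141.3 CPM around a median of 59.0 CPM in the 8-cell BRP block, and from 7.25 to 94.9 CPM around 45.7 CPM in the 12-cell BRP block, a difference of 0.36. Slc38a2 ran from 78.7 to 306.4 CPM around 127.6 CPM in the first, and from 8.42 to 274.3 CPM around 128.7 CPM in the second, a difference of -0.05. Both differences were smaller than the spread within each block. The 2 genes lie next to each other on chromosome 15 (chr15:96571418-96642913 and chr15:96687392-96699730, both on the minus strand). Among the F cells Slc38a1 was the only one of the 9 genes with a count in every cell, and it reached 655.0 CPM in F2, 187.6 CPM in F1 and 46.5 CPM in F16, while Slc38a2 exceeded 10 CPM only in F24 at 108.2 CPM and F1 at 101.7 CPM.

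Over the 9 genes, 4 had a median at least 2-fold higher in the 8-cell than in the 12-cell BRP block (Slc1a3, Glul, Glud1 and Slc38a3), where 35.0% of all genes tested did, and 2 had one at least 2-fold lower (Slc1a1 and Slc1a2), where 19.2% did. Both shares, 4 of 9 and 2 of 9, lie near those of all genes. The median difference was 0.36 over the 9 genes and 0.31 over all genes tested. Every cell was above for 2 genes, Glud1 and Slc38a3, against 4.13% of all genes, and every cell was below for 1 gene, Slc1a1, against 3.26%. Without BRP528 and BRP529 the same 4 genes were at least 2-fold higher (35.6% of all genes) and the same 2 lower (20.4%). Every cell was then above for 3 genes, Slc1a3 being added (6.43%), and below for the same 1 gene (4.93%).

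Against the 12-cell BRP block, the F block had a lower median, by at least 2-fold, for 8 of the 9 genes, Slc38a3 being at a median of 0 in both; 67.5% of all genes tested were lower in this way. None of the 9 was higher, against 0.797% of all genes. The median difference was -5.16 over the 9 genes and -3.03 over all genes. This count rests on the median: with means over cells or with summed counts 3 genes were lower (Slc1a3, Slc38a2 and Slc38a3) and 1 was higher (Slc38a1). Among the 4 F cells with at least 5000000 exonic counts (F1, F2, F6 and F7), the Glul median was higher than in the 12-cell BRP block by 1.24. The number of genes with a count was lower in every F cell than in any BRP cell. Exonic depth was lower in all F cells except F1, which at 14831505 counts lay above BRP569 at 12969692. The labels give the slice interneurons another kit and sequencer than the cultured cells. If the F codes are those interneurons, these differences and that of cell type cannot be told apart.

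**Figure D2:**
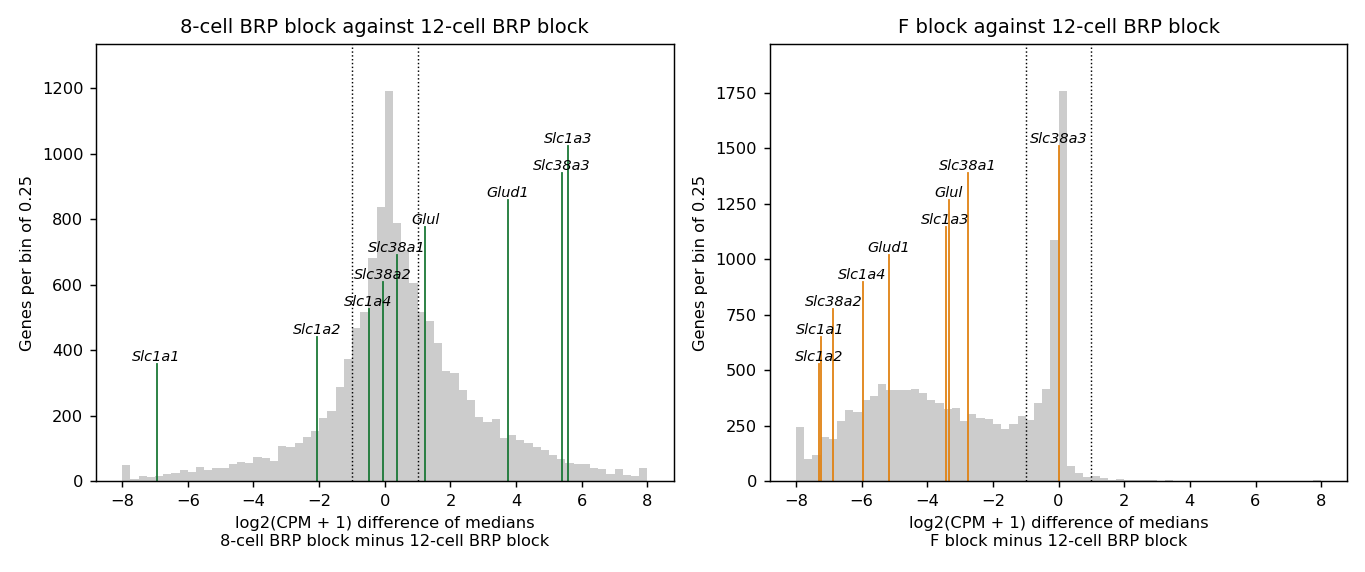
Histograms of the difference of median log2(CPM + 1) over the 12668 genes tested, in bins of 0.25 with values beyond 8 in the end bins, for the 8-cell BRP block (left) and the F block (right) minus the 12-cell BRP block; coloured lines mark the 9 genes and dotted lines a 2-fold difference. On the left 4 of the genes lie above the upper dotted line and 2 below the lower one; on the right 8 lie below, as does most of the histogram.

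The make-up of the Slc1 transporter counts was compared within each cell, which needs no scaling between cells. In the 8-cell BRP block Slc1a3 held 63.2% of the summed exonic counts of Slc1a1 to Slc1a4 (exact binomial 95% interval 63.0% to 63.5%, counting error only) and Slc1a2 29.4% (29.1% to 29.6%). Per cell, the Slc1a3 share ran from 43.3% in BRP570 to 83.9% in BRP571. By counts, Slc1a3 led in 7 of 8 cells, and in BRP570 Slc1a2 led with 55.3%. Per kb of annotated exon, Slc1a3 led in BRP570 as well, at 43.1 CPM against 35.8 CPM for Slc1a2. In the 12-cell BRP block Slc1a2 held 75.2% (75.0% to 75.3%), Slc1a1 15.3% (15.2% to 15.5%) and Slc1a3 3.18% (3.12% to 3.25%). By counts, Slc1a2 led in 11 of 12 cells, with a range of 34.4% to 93.4%, and Slc1a1 led in BRP543 with 51.9%. In BRP535 the counts were near equal, at 34.4% for Slc1a2, 33.6% for Slc1a4 and 32.1% for Slc1a1. Per kb of exon, Slc1a4 led in BRP535 at 71.9 CPM, with Slc1a1 at 32.7 CPM and Slc1a2 at 22.0 CPM. BRP528 and BRP529 held 20.3% and 20.2% of Slc1a3, and without them the block share of Slc1a3 was 0.581%. Per kb of annotated exon, Slc1a3 held 65.5% in the 8-cell BRP block and Slc1a2 59.9% in the 12-cell BRP block.

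In the F block the leading transporter changed from cell to cell. Slc1a2 held 37805 of the 37813 counts of F7 and 60.7% of the 15554 counts of F1. Per kb of exon, however, Slc1a4 led in F1, at 65.4 CPM against 48.5 CPM for Slc1a2. Slc1a4 held 98.7% of the 2661 counts of F2. Slc1a1 held 97.2% of the 1734 counts of F6 and 99.8% of the 1089 counts of F24. The other F cells had 25 counts or fewer over the 4 genes (F11 25, F16 1, F12 0), and their shares were not read.

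**Figure D3:**
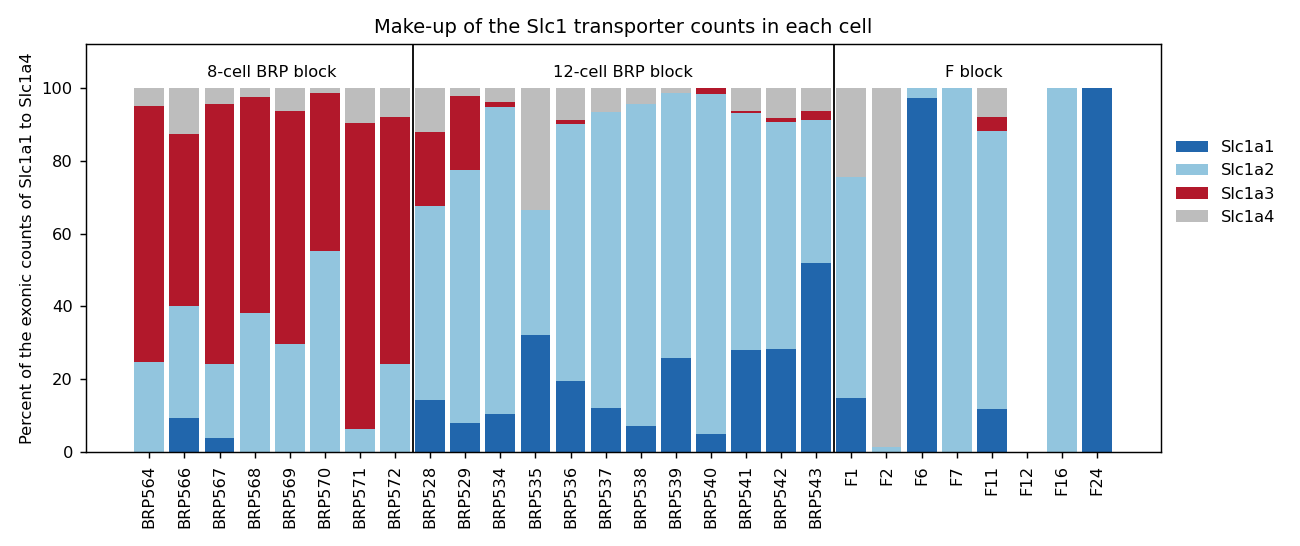
Stacked bars give, for each of the 28 cells along the horizontal axis, the percent of the exonic counts of Slc1a1 to Slc1a4 that each gene held; vertical lines separate the 8-cell BRP, 12-cell BRP and F blocks, and F12 has no bar because it had 0 counts. By counts, Slc1a3 leads in 7 of the first 8 cells and Slc1a2 in 11 of the next 12. The leading gene varies among the F cells. Per kb of exon, the lead changes in BRP570, BRP535 and F1.

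Slc1a1 and Slc1a3 were further set against each other cell by cell. At a level of at least 10 CPM, Slc1a2 and Slc1a3 occurred together in 8 of 8 cells of the 8-cell BRP block, in 5 of 12 of the 12-cell BRP block and in 0 of 8 of the F block. Slc1a1 and Slc1a3 occurred together in 2 of 8, 5 of 12 and 0 of 8. Within the 12 cells, Spearman's rho between Slc1a1 and Slc1a3 was -0.88, that between Slc1a1 and Glud1 was -0.87, and that between Slc1a3 and Slc38a3 was 0.84, whereas Slc1a2 had rho between -0.31 and 0.33 with each of the other genes. These are descriptions over 12 cells of similar depth, which include BRP528 and BRP529. The rho of Slc1a1 with the summed astrocyte markers was -0.71 over the 12 cells and -0.52 over the 10 without these cells, and that of Slc1a3 was 0.57 and 0.26. Whether such cells hold RNA of more than 1 cell was not tested.

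**Figure D4:**
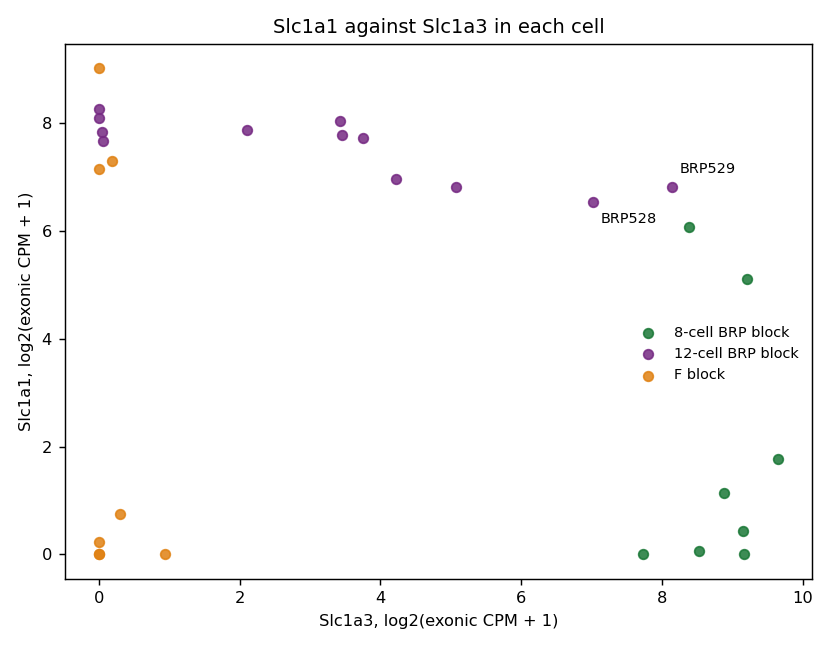
Each point is 1 cell, with log2(exonic CPM + 1) of Slc1a3 on the horizontal and of Slc1a1 on the vertical axis, coloured by block. The 12-cell BRP block runs along the top with BRP528 and BRP529 at its right end, next to the 8-cell BRP block, and no F cell exceeds 0.920 CPM of Slc1a3.

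Apart from the shares of Slc1 counts above, levels of different genes were compared only per kb of annotated exon. In the 8-cell BRP block the order of median CPM per exon kb was Glud1 at 218.1, Glul at 67.7, Slc1a3 at 61.1, Slc1a2 at 14.6, Slc38a2 at 14.4, Slc1a4 at 11.7, Slc38a3 at 7.79, Slc38a1 at 3.43 and Slc1a1 at 0.0940. Only the step from Glud1 to Glul was free of overlap, from 149.9 at the lowest cell of the first to 101.5 at the highest of the second; all other neighbours overlapped. In the 12-cell BRP block the order was Slc1a2 at 61.2, Glul at 28.7, Slc1a1 at 25.8, Glud1 at 17.3, Slc1a4 at 16.6, Slc38a2 at 14.6, Slc38a1 at 2.65, Slc1a3 at 1.15 and Slc38a3 at 0, and every pair of neighbours overlapped. Glul was thus in second place in both BRP blocks, with Glud1 falling from the first to the fourth place and Slc1a2 rising from the fourth to the first. Without BRP528 and BRP529, medians in the 12-cell BRP block were Slc1a1 26.9, Glul 26.2, Slc1a4 16.6, Slc38a2 14.6 and Glud1 9.90. Glul and Glud1 then ranked lower, while Slc1a2 stayed first at 61.2.

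The other genes of the pathway reported here, 22 in all, include further Slc1 and Slc38 transporters, the aminotransferases, the mitochondrial glutamate carriers, the cystine-glutamate exchanger and the vesicular glutamate transporters. Of these, 12 passed the filter on low counts; in the 8-cell BRP block 3 of the 12 were at least 2-fold higher (Slc38a6, Slc7a11 and Slc25a18) and 5 at least 2-fold lower (Slc38a7, Got1, Slc25a22, Slc17a6 and Slc17a7) than in the 12-cell BRP block, beside 35.0% and 19.2% of all genes tested. The mitochondrial glutamate carriers went in opposite directions. Slc25a18 ran from 20.3 to 105.3 CPM in the 8-cell BRP block and had a median of 0 in the 12-cell BRP block, with 10 CPM or more in 2 of 12 cells, whereas Slc25a22 ran from 0 to 15.3 CPM in the first and from 41.0 to 128.2 CPM in the second.

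The aminotransferases were closer. Got1, the cytosolic aspartate aminotransferase, had medians of 70.3 and 208.8 CPM in the 8-cell and 12-cell BRP blocks, Got2, the mitochondrial form, of 27.7 and 45.4 CPM, and Gpt2, an alanine aminotransferase, of 78.7 and 41.1 CPM. Slc7a11, the cystine-glutamate exchanger, varied within the 8-cell BRP block from 0 to 196.8 CPM around a median of 6.01 CPM. The vesicular glutamate transporter Slc17a6 had a median of 195.8 CPM in the 12-cell BRP block and exceeded 10 CPM in 11 of its cells and in 1 cell of the 8-cell BRP block, at 133.4 CPM. Slc17a6 and Slc17a7 are also on the list of glutamatergic markers. Of the 12 genes, 8 were at least 2-fold lower in the F block than in the 12-cell BRP block and 0 higher, beside 67.5% and 0.797% of all genes tested, so the share lower is near that of all genes. Slc38a9, a lysosomal amino acid sensor, had medians of 37.6 and 30.7 CPM in the F and 12-cell BRP blocks. The 4 F cells under 5000000 exonic counts held 37.3 to 579.7 CPM of it. In the 4 deeper F cells its median was 0.0903 CPM and its highest value 317.6 CPM. Outside the filter, Slc1a6, a glutamate transporter known from Purkinje cells, reached 1947 CPM in a single F cell and 10 CPM or more in 2 of the 8.

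The intronic table gave each of the 9 genes a second reading. The intronic share, summed over the 28 cells, was 20.3% of intronic plus exonic counts for Slc38a1, 18.8% for Slc1a3, 8.41% for Slc1a4, 8.06% for Slc1a1 and 3.08% for Glud1. It was 1.20% for Slc38a3, 0.0997% for Slc38a2 with 53 intronic counts, and 0.0679% for Glul with 67. The order differed for medians over the cells with at least 10 counts of the gene. These were 25.6% for Slc1a3, 6.39% for Slc1a4, 6.19% for Slc1a1, 4.75% for Slc38a1 and 0.709% for Glud1. They were 0 for Slc1a2, Glul, Slc38a2 and Slc38a3. Slc1a2 had 0 intronic counts in all 28 cells beside 328126 exonic counts, although its introns span 119 kb by GENCODE, the longest of the 9. Of the 6377 genes with at least 10000 exonic counts, 9.46% had 0 intronic counts and the median share was 4.03%. How the intronic table treats overlapping transcripts is not given in the sources used here, so the 0 of Slc1a2 is given as listed.

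Where intronic counts were plentiful, they followed the exonic order only in part. Of the 17999 intronic counts of Slc1a3, 16451 were in the 8-cell BRP block, 1457 in the 12-cell BRP block and 91 in the F block, and of the 5057 of Slc1a1, 106, 4763 and 188 were. BRP528 held 1234 of the 1457 Slc1a3 counts of its block, and BRP529 held 1. Glud1 was divided more evenly, with 1105, 2068 and 1763 intronic counts, so that its intronic share was 0.886% in the 8-cell BRP block, 7.88% in the 12-cell BRP block and 18.5% in the F block. A single cell could dominate: F2 held 42.8% of the Slc38a1 and 33.7% of the Glud1 intronic counts, and BRP540 held 85.1% of those of Glul. For Glud1, F2 gave 1665 of the 1763 intronic counts of the F block, and BRP572 gave 739 of the 1105 of the 8-cell BRP block. Over all genes, the intronic percent of a cell's counts had medians of 8.75%, 15.7% and 50.4% in the 8-cell, 12-cell and F blocks. The summed Glud1 shares had the same order, but those of the F and 8-cell BRP blocks rest mainly on F2 and BRP572. The part of these block medians in the share of any gene was not tested.

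**Figure D5:**
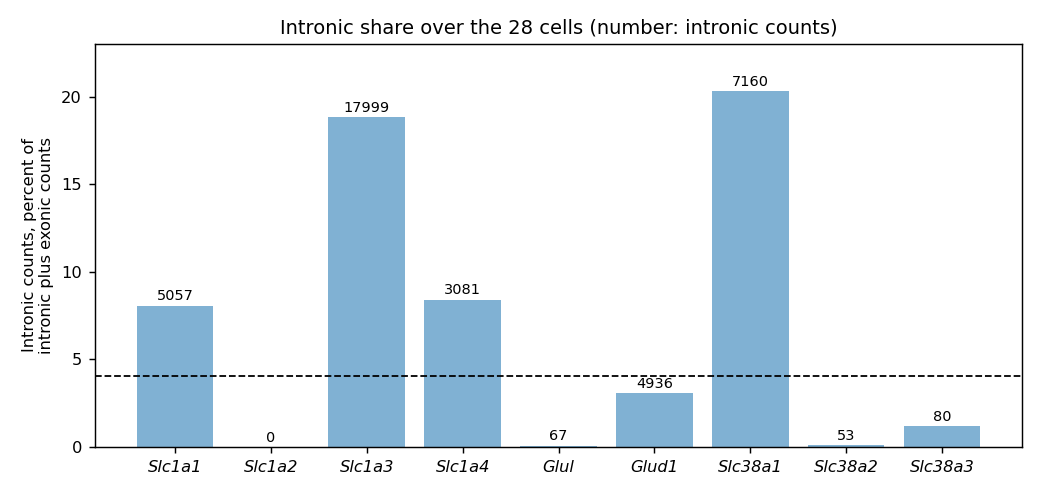
Bars give the intronic counts as a percent of intronic plus exonic counts, summed over the 28 cells, for each of the 9 genes; the number above a bar is the intronic count and the dashed line the median of 4.03% over genes with at least 10000 exonic counts. Slc38a1 and Slc1a3 stand highest in these sums, and Slc1a2 has no bar because its intronic count is 0.

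The genes whose pattern was most like each of the 9 were listed by Spearman's rho of CPM over the 28 cells, among the 10319 genes with at least 10 exonic counts in at least 10 cells, with block differences included. Slc38a3 was most like Sorbs3 (rho 0.95), Slc1a3 most like the astrocyte water channel gene Aqp4 (0.94) and Glud1 most like the peroxiredoxin gene Prdx6 (0.93). Within the 8-cell BRP block alone these values were 0.52, 0.57 and 0.50, and within the 12-cell BRP block 0.84, 0.94 and 0.69. Slc1a1 was most like Omg, which codes for oligodendrocyte myelin glycoprotein, at 0.86, and Slc1a2 most like Large at 0.85, ahead of Pgm2l1 at 0.85 and the postsynaptic scaffold gene Dlg4 at 0.83. Within the 8-cell BRP block, Omg had 0.79, Large -0.64, Pgm2l1 0.71 and Dlg4 -0.19. Within the 12-cell BRP block they had 0.58, 0.73, 0.85 and 0.46. Glul, Slc38a1 and Slc38a2 had lower values, their nearest being Mir682 at 0.78, Alkbh5 at 0.73 and Rock2 at 0.80. These had -0.48, 0.57 and 0.45 within the 8-cell BRP block, and 0.80, 0.30 and 0.75 within the 12-cell BRP block. Among the 9 genes themselves, the highest values over the 28 cells were 0.88 between Slc1a3 and Slc38a3, 0.79 between Glud1 and Slc38a3 and 0.77 between Slc1a3 and Glud1, while Slc1a2 had 0.15 with Slc1a3.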

How the data were processed

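The authors deposited raw exonic and intronic read counts per gene and cell for 28 single cells. The submitters' processing notes list bcl2fastq 2.17, STAR 2.4.0 and mm10 without roles; the counting tool, annotation and strand setting are not given in the sources used here, so reads of overlapping or antisense genes cannot be told apart. No column could be tied to a sample, and all cells were treated as 1 pooled sample, with no test between blocks and no p-value. Single cells far from their block were sought by Dixon's criterion in the 8-cell BRP block and the F block only. Members, blocks and gene lists were chosen with earlier results of these data known.

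Levels are exonic CPM (counts per 1000000 exonic counts of the cell). Differences are between block medians of log2(CPM + 1), with at least 2-fold as the call, for genes with at least 10 counts in at least 4 cells. Named genes are the 9 members, the other genes of the pathway (1 of which is not reported here) and, per member, the 3 most alike by Spearman's rho. Positions and exon lengths are from GENCODE M21 (GRCm38). The contrast was tested on simulated counts for the BRP blocks only, with planted changes larger than 2-fold in genes above a set mean level. That simulation did not cover the F block, genes of low level or changes near the 2-fold call. Alternatives used edgeR 4.0.16, DESeq2 1.42.0, thinning to 800000 counts, other averages and omission of single cells. Python 3.11.15 and R 4.3.3 were used. Exonic totals were 838343 to 26770944 counts per cell, and intervals cover counting error only.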

Additional observations from a re-analysis of the deposited data

Results flagged for a closer look

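On the log2(CPM + 1) scale, 1 value lay apart among 17 sets of member levels tested within a block: the Slc1a3 level of cell F7, at 0.920 CPM, against 0 to 0.228 CPM in the other 7 F cells. Its gap to the nearest cell was 0.686 of the range of the block on that scale, above Dixon's limit of 0.526 for 8 cells. Chance sets apart about 1 in 20 such sets only where the values are normally distributed. Only 3 of the 8 F cells had a Slc1a3 count, so that rate cannot be applied here. The value is that of 8 counts. The scale, CPM without logs being tried after the data were seen, decides how many values lie apart. On CPM 8 values did, 6 of them in the F block: F7 for Slc1a2 (gap 0.854 of the range), Slc1a3 (0.753) and Glul (0.747), F2 for Glud1 (0.808) and Slc38a1 (0.714), and F24 for Slc1a1 (0.699). The other 2 were BRP564 for Glud1 (0.629) and BRP567 for Slc38a3 (0.603). What sets these values apart was not tested.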

How the results depend on the processing

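No paired analysis was possible because the columns carry none of the replicate numbers of the labels and no test was made. The counts of members at least 2-fold higher and lower in the 8-cell than in the 12-cell BRP block stayed within 1.5 times of 4 and 2 under every alternative run, including omission of each cell and, chosen after seeing the data, of BRP528 and BRP529. For the F block, means over cells and summed counts each gave 1 member higher (against 0) and 3 lower (against 8), and the 4 F cells with at least 5000000 exonic counts, a choice made after seeing the data, gave 1 higher. Under these choices the difference from the 12-cell BRP block turned positive for some members called lower: with means Slc1a4 0.20, Glul 0.20, Glud1 0.55 and Slc38a1 1.22; with summed counts 0.61, 0.63, 0.68 and 1.39; with the 4 deeper F cells Glul 1.24; and with DESeq2 size factors Slc38a1 0.17.

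Scaling shifted the median difference of all genes between the BRP blocks from 0.31 with cell totals to 0.17 with edgeR TMM factors and 0.06 with DESeq2 size factors, and for the F block from -3.03 to -2.40 and -2.12; the sign of every member called between the BRP blocks was unchanged under both. Block medians in CPM in the 8-cell BRP block became, with TMM, Slc1a3 336.1, Glul 162.3 and Glud1 614.5, and with DESeq2 size factors Slc1a3 263.3, Slc1a4 22.1, Glul 123.5, Glud1 491.7, Slc38a1 31.8, Slc38a2 70.6 and Slc38a3 20.6. As means over cells, then summed counts, Slc1a1 in the 8-cell BRP block was 12.9 and 12.2, and Slc38a3 in the 12-cell BRP block 2.06 and 1.97; in the F block Slc1a1 was 101.2 and 99.1, Slc1a2 625.4 and 925.8, Slc1a4 91.5 and 125.8, Glud1 140.8 and 151.9, Slc38a1 112.9 and 127.4, and Slc38a2 26.8 and 34.5. Over the 4 deeper F cells the medians were Slc1a1 70.1, Slc1a2 321.6, Slc1a4 128.4, Glud1 88.4 and Slc38a1 94.9. With intronic counts added, the F medians of Slc1a3 and Slc38a3 were 1.58 and 0.0260. Omission of single F cells moved the F median of Glul between 0.369 and 65.2, depending on whether a high or a low cell was left out. Per kb of exon, Slc1a4 held 13.1% and 16.8% of the Slc1 counts of the 8-cell and 12-cell BRP blocks. All other levels and shares moved by less than 1 SD over the cells, taken for levels on the log2(CPM + 1) scale. In the F block such a move could be large. The Glul median of 32.8 CPM there became 227.6 as a mean, 307.7 with summed counts and 240.2 over the 4 deeper cells. Why these values shifted was not tested. Depth limits the F cells most, since 3 counts are up to 3.58 CPM there.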
